A study of Homo sapiens with 8 samples.

Results

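The genes described here are 43 integrin and focal adhesion genes of 63677 genes counted in each library. They were chosen by name from a list of 7 leukocyte integrin subunits, 12 other integrin subunits, CD44 and vimentin, and the adaptors, kinases and actin linkers that join integrins to the cytoskeleton. The rule itself uses no measured value, but the members and lists were chosen with earlier results of these data known. For the comparisons the genes were also sorted into 11 leukocyte adhesion genes, 16 adhesion genes of non-blood cells and 16 broadly expressed adhesion genes, from what is known of each gene. The class names are shorthand for these lists and do not mean that blood cells lack the genes. Members of the non-blood class, such as ITGA1, CTTN and FERMT2, were also expressed in the T-cell lines described below.

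RNA was sequenced from MOLT-4 and DND-41, established human T-cell acute lymphoblastic leukaemia lines grown in suspension. The groups were MOLT-4 with 100 nM ACBI-1, MOLT-4 with the solvent DMSO, DND-41 with 100 nM ACBI-1 and DND-41 with DMSO, all harvested after 24 h with 2 libraries per group. ACBI-1 is a degrader molecule that directs SMARCA2, SMARCA4 and PBRM1, subunits of the SWI/SNF chromatin remodelling complexes, to the proteasome. It acts on proteins, so the RNA of these subunits is no check of the treatment. The labels do not say whether libraries of a group came from separate cultures, so p-values measure the spread between libraries, which may be technical, and each line is 1 genetic background.

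Integrins are heterodimers of an alpha and a beta chain that bind matrix proteins or counter-receptors on other cells. Talins and kindlins bind the tails of the beta chains and switch the receptor to its active state, and vinculin, filamin, alpha-actinins and zyxin couple it to actin. Focal adhesion kinase and its blood-cell relative PYK2 then phosphorylate paxillin and docking proteins of the CAS family. T cells use the beta-2 integrin LFA-1 (ITGAL with ITGB2) and the alpha-4 integrins for adhesion and homing, while spread fibroblasts and epithelial cells build large focal adhesions.

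The promoters of ZYX, CD44 and FERMT2 are shown because these genes had the largest changes among the 2-fold changed members with a single start in the table of promoters. They are the 250 bases before the start, 5′ to 3′ on the strand of the gene, from RefSeq (GRCh38.p14): ZYX at chr7:143381095-143381344 (plus strand), CD44 at chr11:35138921-35139170 (plus strand) and FERMT2 at chr14:52951051-52951300 (minus strand). Capitals mark GGGCGG, the core of the SP1 motif, on either strand.

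ZYX: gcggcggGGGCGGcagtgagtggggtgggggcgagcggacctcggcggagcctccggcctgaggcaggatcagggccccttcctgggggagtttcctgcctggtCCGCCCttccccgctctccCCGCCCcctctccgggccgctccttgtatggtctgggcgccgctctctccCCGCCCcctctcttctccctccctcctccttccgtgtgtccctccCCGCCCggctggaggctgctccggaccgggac

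CD44: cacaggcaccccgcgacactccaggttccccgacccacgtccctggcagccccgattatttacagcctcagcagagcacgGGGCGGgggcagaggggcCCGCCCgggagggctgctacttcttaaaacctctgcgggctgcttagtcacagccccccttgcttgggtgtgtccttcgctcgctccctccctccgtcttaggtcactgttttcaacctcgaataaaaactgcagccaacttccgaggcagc

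FERMT2: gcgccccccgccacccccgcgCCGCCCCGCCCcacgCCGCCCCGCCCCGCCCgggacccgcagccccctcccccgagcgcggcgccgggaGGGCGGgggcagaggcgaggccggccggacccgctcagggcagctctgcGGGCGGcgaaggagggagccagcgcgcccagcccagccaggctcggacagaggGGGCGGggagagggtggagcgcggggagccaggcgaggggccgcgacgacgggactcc

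GGGCGG occurred 5 times before ZYX, which was higher with ACBI-1, and 2 times before CD44 and 8 times before FERMT2, which were both lower. Matches of this motif may overlap each other, as they do before FERMT2. Of 35116 promoter windows of the same length, 42.6% held this motif. The GATA motif, searched as AGATAA on both strands, had 0 matches in these 3 windows and was held by 9.2% of all windows. The motif of CSL, the partner of NOTCH, was searched as TGGGAA and also had 0 matches there, against 20.8% of all windows that held it. The E-box, searched as CANNTG, had 0 matches there and was held by 61.8% of all windows. The RUNX motif, searched as TGTGGT, had 0 matches there and was held by 11% of all windows. Of the 43 genes, 31 were in the promoter table and 18 had 1 start there.

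Libraries held 21308737 to 22067644 counts assigned to genes. The 8 T-lineage markers summed to between 2413 and 3767 CPM (counts scaled to a common library total) in every library. Single markers were less even than the sum. In MOLT-4 with ACBI-1, 3 of the 8 were higher and 4 lower (edgeR), with CD7 at a log2 fold change of -2.63 and CD2 at -1.92. Of all genes tested there, 28.2% were higher and 30.2% lower. CD7 ran from 227 to 1293 CPM over the DND-41 libraries. The endothelial, epithelial and myeloid marker lists each summed to at most 1.20 CPM, and the fibroblast list, given below, to at most 33.2 CPM. The 4 DND-41 libraries did not group by their treatment labels: the chi-square per degree of freedom between libraries of the same replicate number was 6 and 5.53, and it was 70.2 to 84.1 for the other DND-41 pairs. In MOLT-4 it was 2.85 and 1.56 within groups and 55.7 to 57.0 between them. For the 40 of the 43 genes with a value, the authors' deposited table for DND-41 held the log2 fold change of libraries numbered 2 over libraries numbered 1, within 0.001. The sources used here do not say which number was treated. DND-41 is therefore given both as labelled and by number, after MOLT-4.

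In MOLT-4, RNA of 4 of the 7 leukocyte integrins (ITGAL, ITGB2, ITGA4 and ITGAE) and of the blood-cell genes PTK2B, FERMT3 and NEDD9 was lower with ACBI-1, and RNA of a few focal adhesion genes typical of adherent cells was higher. ITGAL, the alpha chain of LFA-1, was 6.62-fold lower and PTK2B, the kinase PYK2, 5.63-fold lower. PTK2, focal adhesion kinase, was 19.1-fold higher and CTTN, the actin-binding protein cortactin, 11.9-fold higher. The class of adhesion genes of non-blood cells did not share a direction. Of its 11 tested genes, 3 rose and 3 fell by at least 2-fold, against 6.02% and 4.82% of all genes tested. Those that fell were FERMT2 (log2 fold change -2.13), ITGA3 (-1.32) and ITGB3 (-1.12). In bulk RNA, fewer cells that express a gene and less RNA per cell cannot be told apart.

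Of the 43 genes, 35 passed the filter on low counts in MOLT-4, of which 11 rose, 18 fell and 6 did not pass the test (edgeR quasi-likelihood test, Benjamini-Hochberg adjusted p under 0.05). The share called was 58.4% over all 14618 genes tested, with 28.2% higher and 30.2% lower, so a count of calls in itself is common here. At least 2-fold changes were rarer over all genes, at 6.02% higher and 4.82% lower, and 4 of the 43 genes rose and 12 fell by that much. The median log2 fold change was -0.21 for the members tested and 0.01 for all genes tested.

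By class, 0 of the 9 tested leukocyte adhesion genes rose and 7 fell, all 7 by at least 2-fold (median log2 fold change -1.29). Among the 11 tested adhesion genes of non-blood cells, 5 rose and 3 fell (median 0.46). Among the 15 tested broadly expressed genes, 6 rose and 8 fell (median -0.21). Of all genes tested, 28.2% rose and 30.2% fell. The difference between classes was not tested, and these counts describe the chosen genes only. The leukocyte counts of 0 and 7 were the same under DESeq2 size factors, total counts and without each library in turn, and were 0 and 3 (ITGAL, ITGA4 and PTK2B) in a fit that took 1 spread from all 8 libraries. By DESeq2 0 leukocyte genes rose too, and 0 of them rose at an unadjusted p under 0.05 by edgeR, since all 7 genes with such a p fell.

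**Figure D1:**
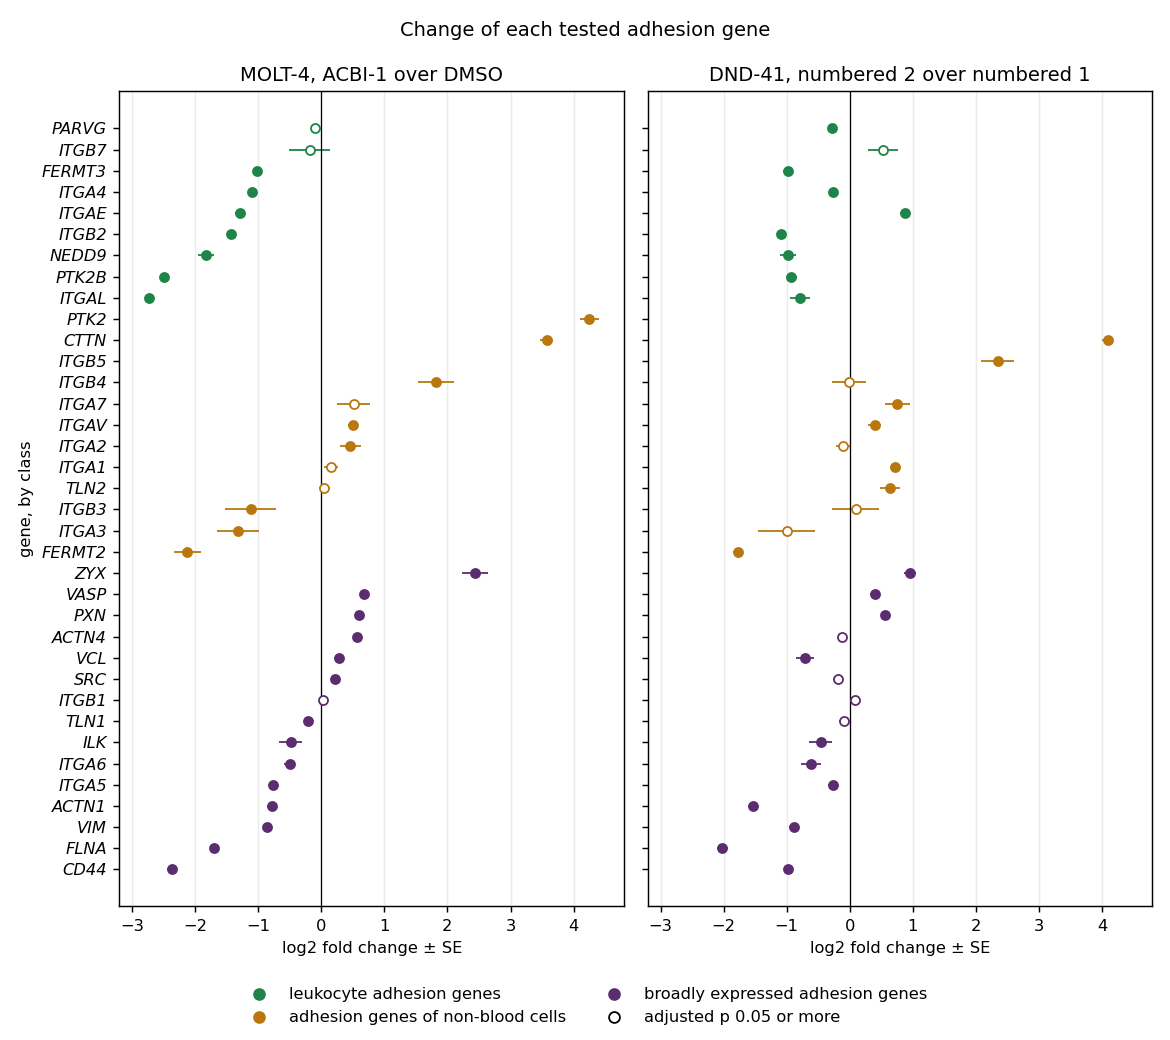
Log2 fold change with its standard error (x axis) of each tested adhesion gene (y axis, grouped by class), for MOLT-4 ACBI-1 over DMSO on the left and DND-41 libraries numbered 2 over numbered 1 on the right. Filled points have an edgeR adjusted p under 0.05. In MOLT-4 the leukocyte genes lie at or left of -0.10, while the genes of non-blood cells run from -2.13 to 4.25.

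Both chains of LFA-1 fell. ITGAL had 18.5 and 18.4 CPM in the ACBI-1 libraries, against 120.4 and 124 CPM in the DMSO libraries (log2 fold change -2.73 ± 0.056 SE, edgeR adjusted p = 1.71e-35). Its beta chain ITGB2 had 117 and 123 CPM with ACBI-1, against 321 and 323 CPM with DMSO (-1.43 ± 0.039, edgeR adjusted p = 3.73e-31). For both chains of LFA-1 the groups were far apart and the libraries of a group nearly equal. Here and below, a lack of overlap between groups of 2 libraries is a description only. For genes chosen by their change it adds nothing to the test, and the share of all genes without overlap was not counted.

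ITGA4, the alpha chain of the receptors for VCAM-1 and for mucosal MAdCAM-1, had 282 and 297 CPM with ACBI-1, against 629.9 and 609.5 CPM with DMSO (-1.10 ± 0.036, edgeR adjusted p = 6.28e-28). ITGAE, which pairs with ITGB7 in the E-cadherin receptor of mucosal T cells, had 15.2 and 14.3 CPM with ACBI-1, against 34.5 and 37.6 CPM with DMSO (-1.29 ± 0.075, edgeR adjusted p = 3.96e-19). The groups did not overlap for either gene. HASPIN, which lies on the opposite strand at ITGAE, held 111% as many counts as ITGAE over the 4 MOLT-4 libraries, and the strand setting of the counting is not given in the sources used here. HASPIN itself had a log2 fold change of 0.09 (edgeR adjusted p = 0.277).

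ITGB7 stayed near the detection limit, with 0.669 and 1.37 CPM in the ACBI-1 libraries and 1.05 and 1.28 CPM in the DMSO libraries, which overlap (-0.19 ± 0.33, edgeR adjusted p = 0.649). ZNF740, on the opposite strand, shares 1886 exon bases with it and had 4805 counts over the MOLT-4 libraries, against 95 for ITGB7. ITGAM and ITGAX, the myeloid alpha chains of the same beta-2 family, did not pass the low-count filter. ITGAM had at most 0.0951 CPM in a MOLT-4 library and ITGAX had 0 counts in all 8 libraries, which allows up to 3 counts in each.

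The other integrin subunits did not share a direction. ITGB4, which pairs with ITGA6 in the laminin receptor of epithelial hemidesmosomes, had 3.43 and 2.13 CPM with ACBI-1, against 0.807 and 0.760 CPM with DMSO (1.82 ± 0.29, edgeR adjusted p = 5.42e-07). Its partner ITGA6 fell, with 15.1 and 14.8 CPM with ACBI-1 against 22.6 and 19.9 CPM with DMSO (-0.50 ± 0.084, edgeR adjusted p = 1.65e-06). ITGA3, another laminin receptor chain, had 0.580 and 0.709 CPM with ACBI-1, against 1.24 and 1.99 CPM with DMSO (-1.32 ± 0.33, edgeR adjusted p = 0.000708). The groups of these 3 genes did not overlap, which adds nothing to the test, and the levels of ITGB4 and ITGA3 were low throughout.

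ITGAV, the alpha chain of vitronectin receptors, rose by 0.50 and ITGA2, a collagen receptor chain, by 0.46 on the log2 scale, while ITGA5, the fibronectin receptor chain, fell by 0.77. ITGB3, a beta chain of vitronectin receptors, fell at the edge of detection, with 0.268 and 0.620 CPM with ACBI-1 against 1.19 and 0.760 CPM with DMSO (edgeR adjusted p = 0.0177). ITGB1, the common beta chain of most of these receptors, had 93.7 and 94.8 CPM with ACBI-1 and 94.6 and 89.5 CPM with DMSO, which overlap (0.03 ± 0.045, edgeR adjusted p = 0.551). ITGA1 (0.15) and ITGA7 (0.51) did not pass either. PELO, which shares 475 exon bases with ITGA1 on the same strand, had more counts than ITGA1 in MOLT-4. BLOC1S1, opposite ITGA7, had more counts than ITGA7 but shares only 7 exon bases with it. ITGA9 and ITGB5 did not pass the low-count filter.

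CD44, the hyaluronan receptor of activated and memory T cells, had 10.6 and 10.2 CPM in the ACBI-1 libraries, against 53.5 and 53.9 CPM in the DMSO libraries (-2.37 ± 0.072, edgeR adjusted p = 3.15e-29). VIM, the intermediate filament protein of lymphocytes and mesenchymal cells, had 220.0 and 238 CPM with ACBI-1, against 416 and 417 CPM with DMSO (-0.86 ± 0.037, edgeR adjusted p = 1.56e-23). Both genes were lower in each ACBI-1 library than in either DMSO library.

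Of the talins, kindlins, vinculin and filamin, 1 rose and 4 fell, where 28.2% of all genes tested were higher and 30.2% lower. FLNA, the actin crosslinker filamin A, had 278 and 268 CPM with ACBI-1, against 908 and 874 CPM with DMSO (-1.71 ± 0.036, edgeR adjusted p = 6.32e-35). FERMT3, the kindlin of blood cells, had 66.7 and 66.1 CPM with ACBI-1, against 135 and 135 CPM with DMSO (-1.02 ± 0.044, edgeR adjusted p = 1.17e-23). FERMT2, the kindlin of other tissues, had 0.981 and 1.68 CPM with ACBI-1, against 6.65 and 5.03 CPM with DMSO (-2.13 ± 0.21, edgeR adjusted p = 1.07e-11).

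These 3 genes were lower in both ACBI-1 libraries, so kindlins of both kinds fell. TLN1, the main talin, fell by 0.21 on the log2 scale, and TLN2 did not pass (0.05, edgeR adjusted p = 0.667). VCL, vinculin, rose by 0.28. AP3M1 overlaps VCL on the opposite strand over 1109 exon bases and had 11895 counts in MOLT-4, against 1922 for VCL, with a log2 fold change of 0.03. TRPT1, opposite FERMT3, shares 88 exon bases with it and held 30.7% as many counts as FERMT3.

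ILK, the pseudokinase that links integrins to parvins, fell by 0.49, with 3.03 and 2.52 CPM with ACBI-1 against 3.85 and 3.94 CPM with DMSO. TAF10, on the opposite strand, shares 2374 exon bases with ILK and had 8500 counts against 289. PARVG, the parvin of blood cells, had 52.1 and 50.2 CPM with ACBI-1 and 53.8 and 55.9 CPM with DMSO (-0.10 ± 0.054, edgeR adjusted p = 0.107). PARVB, the parvin of wider distribution, reached at most 0.443 CPM, and the tensins TNS1 and TNS3 had 0 counts in all MOLT-4 libraries but ACBI-1 replicate 2, where they had 6 and 1.

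The kinases of the family moved in opposite directions. PTK2 (ENSG00000169398, chromosome 8) had 25.1 and 22.2 CPM in the ACBI-1 libraries, against 0.950 and 1.52 CPM in the DMSO libraries (4.25 ± 0.15, edgeR adjusted p = 4.91e-27). PTK2B (ENSG00000120899, on the same chromosome) had 13.5 and 12.6 CPM with ACBI-1, against 74.3 and 72.7 CPM with DMSO (-2.49 ± 0.066, edgeR adjusted p = 1.64e-31). The groups did not overlap for either kinase.

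Their docking protein NEDD9, the CAS family member of lymphocytes, had 3.43 and 3.54 CPM with ACBI-1, against 12.5 and 12.4 CPM with DMSO (-1.84 ± 0.13, edgeR adjusted p = 1.96e-16). BCAR1, the CAS protein of adherent cells, had 1 count in 1 MOLT-4 library (ACBI-1 replicate 2) and 0 in the others. SRC, the kinase that phosphorylates both docking proteins, rose by 0.22 and PXN, the scaffold paxillin, by 0.60. PXN-AS1, opposite PXN, held 9.63% as many counts.

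Of the 5 actin linkers 4 rose and 1 fell, where 28.2% of all genes tested were higher and 30.2% lower. CTTN had 33.8 and 34.7 CPM with ACBI-1, against 2.71 and 3.04 CPM with DMSO (3.57 ± 0.11, edgeR adjusted p = 1.28e-29). ZYX, the stress-fibre protein zyxin, had 6.96 and 5.67 CPM with ACBI-1, against 1.28 and 1.04 CPM with DMSO (2.43 ± 0.20, edgeR adjusted p = 7.21e-14). VASP, the actin polymerase that zyxin recruits, rose by 0.67 and the alpha-actinin ACTN4 by 0.57, while the related ACTN1 fell by 0.78 on the log2 scale.

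**Figure D2:**
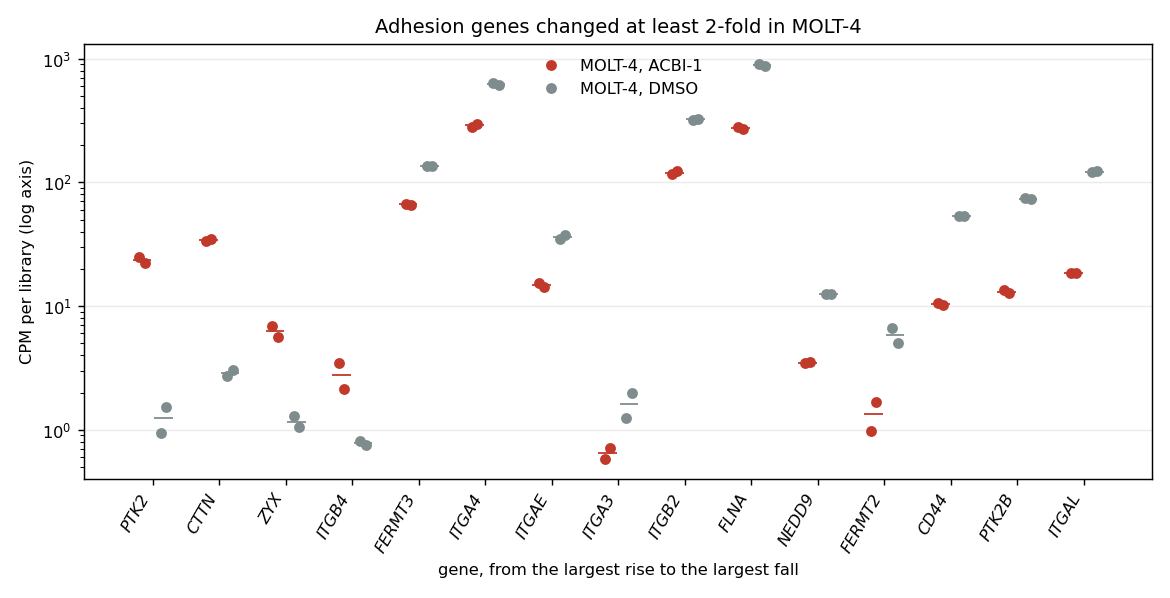
CPM on a log axis in each MOLT-4 library for the 15 adhesion genes that changed at least 2-fold and reached a mean of 1 CPM in 1 group, with ACBI-1 libraries left of DMSO libraries and bars at the group means. PTK2, CTTN, ZYX and ITGB4 are higher with ACBI-1 and the others are lower, as for ITGAL at 18.5 and 18.4 CPM.

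Of the 16 members called and changed by at least 2-fold, 14 were called without each MOLT-4 library in turn, with at least a 2-fold change each time. The exceptions were ITGA3 (adjusted p = 0.0765 without ACBI-1 replicate 1 and 0.0776 without DMSO replicate 2, edgeR) and ITGB3 (adjusted p = 0.279 without ACBI-1 replicate 1 and 0.286 without DMSO replicate 1, edgeR). The calls of 3 members with smaller changes also ended. These were ITGA2 (0.0748 without ACBI-1 replicate 1, 0.0855 without ACBI-1 replicate 2 and 0.145 without DMSO replicate 2), VCL (0.0516 without ACBI-1 replicate 1 and 0.0878 without DMSO replicate 2) and ILK (0.154 without ACBI-1 replicate 2, 0.0581 without DMSO replicate 1 and 0.0859 without DMSO replicate 2). The fit that took 1 spread from all 8 libraries, with the DND-41 groups as labelled, called 4 members higher and 5 lower, of 250 higher and 294 lower among all genes. Of the 16 members, 7 were called in it (PTK2, ITGB4, ZYX, ITGAL, ITGA4, PTK2B and CD44). Those that lost their call besides ITGA3 and ITGB3 were CTTN (edgeR adjusted p = 0.272), FLNA (0.280), FERMT2 (0.232), FERMT3 (0.223), ITGB2 (0.150), ITGAE (0.119) and NEDD9 (0.0890).

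With total counts in place of TMM, the median of all genes moved by 0.12, and 5804 genes were called higher and 3031 lower instead of 4120 and 4413. Members then were 14 higher and 17 lower, with ITGA1, ITGA7 and ITGB1 passing as higher and PARVG at 0.02 instead of -0.10. Under total counts the leukocyte genes were 0 higher and 7 lower, the genes of non-blood cells 7 and 3, and the broadly expressed genes 7 and 7.

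Markers of other cell types were not even between the libraries. The 6 fibroblast markers summed to 1.39 and 29.7 CPM in ACBI-1 replicates 1 and 2, against 1.09 and 1.97 CPM in the DMSO libraries. COL1A1 had 11 and 312 counts with ACBI-1 against 8 and 23 with DMSO, while DCN and LUM were at or near 0. The 6 endothelial markers summed to 1.16 and 1.20 CPM in the ACBI-1 libraries, against 0.317 and 0.366 CPM in the DMSO libraries. Of these EGFL7 was tested and rose (2.20, edgeR adjusted p = 3.31e-05), and the other 5 had under 3 counts in every library, 3 of them 0. Without ACBI-1 replicate 2, 10 members were higher and 17 lower. In ACBI-1 replicate 1, where the fibroblast markers were low, PTK2 (25.1 CPM), CTTN (33.8), ZYX (6.96) and ITGB4 (3.43) were near or above their levels in replicate 2. The traces of TNS1, TNS3 and BCAR1 were found in replicate 2 of the MOLT-4 ACBI-1 libraries, and the part of the fibroblast and endothelial markers in the results was not tested.

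Levels can be compared between genes per exon length (TPM, counts per base of exon scaled to the same total in every library). In MOLT-4 with DMSO the order was ITGA4 (234 TPM), ITGB2 (142), ITGAL (56.4), ITGB1 (45.7), ITGA5 (24.2), ITGAE (16.2) and ITGA6 (9.70). With ACBI-1 it was ITGA4 (124), ITGB2 (59.7), ITGB1 (53.1), ITGA5 (16.1), ITGAL (9.65), ITGAV (9.46) and ITGA6 (7.76). ITGAL then overlapped ITGAV, at 9.53 and 9.38 TPM, while ITGB2, at 57.1 and 62.3 TPM, stood just above ITGB1, at 51.9 and 54.3 TPM. The 7 leukocyte integrins summed to 194 and 210.0 TPM with ACBI-1, against 447 and 450.4 TPM with DMSO. The 12 other subunits summed to 92.2 and 94.8 TPM with ACBI-1 and 92.3 and 88.9 TPM with DMSO, which overlap on this scale. TPM carry no TMM scaling, so a difference between groups need not match that in CPM. ITGB1, for example, had 53.1 TPM with ACBI-1 and 45.7 TPM with DMSO, but a log2 fold change of 0.03 by edgeR. Whether the sums also overlap after TMM scaling was not computed.

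**Figure D3:**
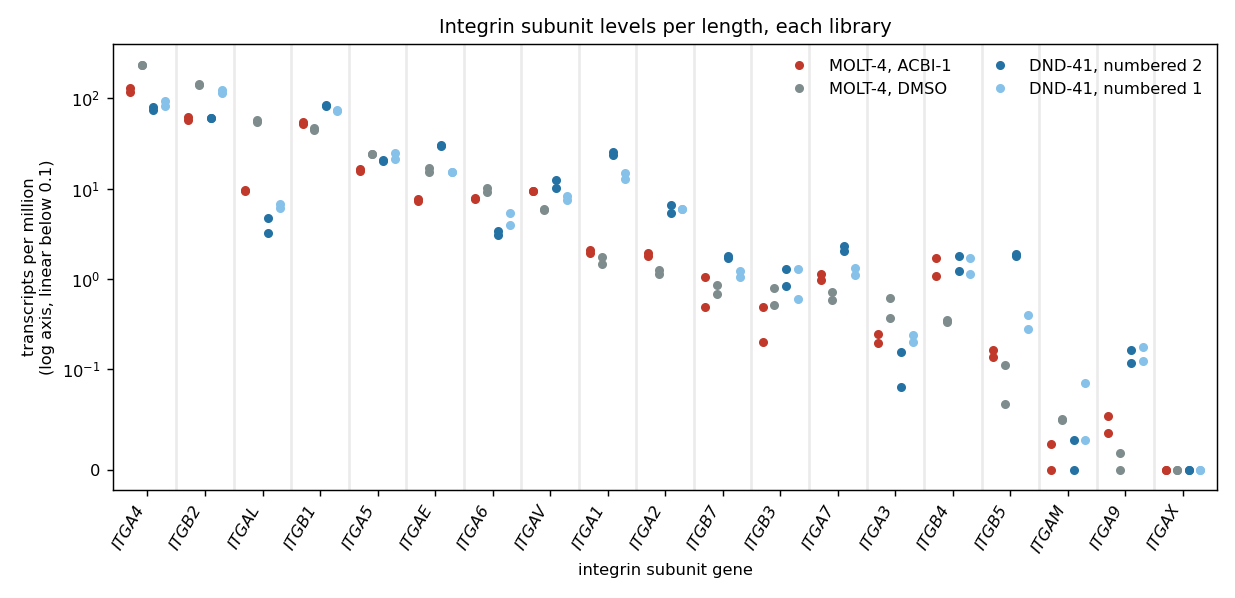
Level of the 19 integrin subunits in TPM in each library (log axis, linear below 0.1), with MOLT-4 ACBI-1, MOLT-4 DMSO, DND-41 numbered 2 and DND-41 numbered 1 from left to right within a gene. ITGAL is near 56.4 TPM in MOLT-4 with DMSO and at or below 9.80 TPM in every other library.

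The same values can be read as shares within paralog pairs. PTK2 made up 51.7% and 50.4% of the summed level of PTK2 and PTK2B in the ACBI-1 libraries, against 0.732% and 1.19% in the DMSO libraries. CTTN made up 19.8% and 19.7% of the sum of CTTN and its blood-cell relative HCLS1 with ACBI-1, against 1.33% and 1.51% with DMSO. HCLS1 itself fell by 0.52 on the log2 scale (edgeR adjusted p = 1.07e-14). The kindlins did not follow, since FERMT2 was 0.527% and 0.909% of FERMT2 and FERMT3 with ACBI-1, against 1.74% and 1.33% with DMSO. PARVB and BCAR1 stayed at no more than 1.39% of their pairs in all 8 libraries.

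**Figure D4:**
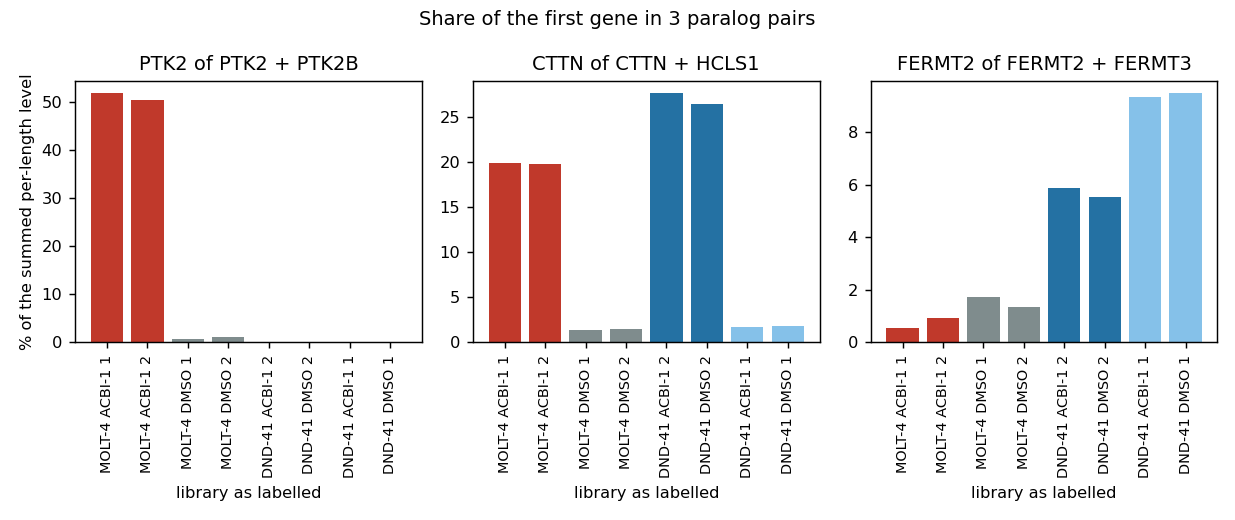
Share of the first gene in the summed per-length level of 3 paralog pairs, as a percentage in each of the 8 libraries. The PTK2 share is near 51.7% in MOLT-4 with ACBI-1 and 0 in DND-41, and the CTTN share is high in MOLT-4 with ACBI-1 and in the DND-41 libraries numbered 2.

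Other genes of the pathway were read from further lists. Of 28 tested among 35 further focal adhesion adaptors, 10 rose and 11 fell, nearly even between the directions, as over all genes (28.2% higher and 30.2% lower). The genes named next had the smallest adjusted p of their list. LPXN, the paxillin relative of blood cells, averaged 26.6 CPM with ACBI-1 and 118 CPM with DMSO (-2.15), and LIMS2, a partner of ILK, averaged 33.6 CPM with ACBI-1 and 132 CPM with DMSO (-1.98). LIMS1, the related ILK partner, rose by 0.80, and EVL, a relative of VASP, fell by 0.86. Of 7 remaining integrin subunits 1 was tested, the collagen receptor chain ITGA10, which fell by 0.68.

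Of 11 tested genes of integrin activation in lymphocytes 2 rose and 5 fell, a share of calls near the 58.4% of all genes. RASGRP2, the exchange factor that switches on RAP1 upstream of talin, averaged 12.2 CPM with ACBI-1 and 47.5 CPM with DMSO (-1.96). RASA3, which switches RAP1 off, averaged 261 CPM with ACBI-1 and 89.5 CPM with DMSO (1.54). The adaptor FYB fell by 0.90 and CYTH1, which binds the ITGB2 tail, by 0.65.

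All 18 lymphocyte actin genes were tested, and 17 fell and 1 rose, where 30.2% of all genes tested were lower and 28.2% higher. By at least 2-fold, 3 of the 18 fell, against 4.82% of all genes, and these shares were not tested against each other. Most changes were small, with a median of -0.33. CORO1A, the coronin of blood cells, averaged 87.2 CPM with ACBI-1 and 381 CPM with DMSO (-2.13), RAC2 fell by 1.23, WAS by 1.04 and MSN, moesin, by 0.91. The gene that rose, named after its value was seen, was RDX, the related protein radixin (0.47).

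As labelled, and with no term for the replicate number, DND-41 had no called difference. Of 14602 genes tested 0 (0%) were called for ACBI-1 over DMSO by edgeR, with 37 at an unadjusted p under 0.05, and DESeq2 called 0 of the 43 members. All 35 tested members failed the test, with log2 fold changes of -0.63 to 0.42 and 0 at an unadjusted p under 0.05. CTTN had 4.65 and 82.5 CPM under the ACBI-1 label and 5.03 and 82.5 CPM under the DMSO label, so the spread within a label was as wide as the whole range.

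Grouped by replicate number, the DND-41 libraries differed in many genes. Of 35 tested members 10 were higher and 16 lower in the libraries numbered 2, where 51.1% of all genes were called, 25.4% higher and 25.7% lower. At least 2-fold changes among the members were fewer than in MOLT-4, with 2 higher and 4 lower, where 6.03% and 4.81% of all genes were. The median log2 fold change was -0.19 for the members and 0.02 for all genes tested. ITGB5 passed the low-count filter here and PTK2 did not, and otherwise the genes tested were those tested in MOLT-4. Since these libraries carry both treatment labels, no direction of treatment is read from this contrast.

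CTTN had 82.5 and 82.5 CPM in the libraries numbered 2 and 4.65 and 5.03 CPM in those numbered 1 (4.09 ± 0.093, edgeR adjusted p = 2.39e-09). ITGB5, a beta chain of vitronectin receptors, had 3.24 and 3.25 CPM in those numbered 2, against 0.727 and 0.537 CPM in those numbered 1 (2.35 ± 0.26, edgeR adjusted p = 3.96e-05). Both genes were higher in each library numbered 2 than in any numbered 1, which adds nothing to the test for genes chosen by their change.

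FLNA had 519 and 553 CPM in the libraries numbered 2, against 2310.0 and 2032 CPM in those numbered 1 (-2.02 ± 0.083, edgeR adjusted p = 7.31e-08). FERMT2 had 15.7 and 16.1 CPM in those numbered 2, against 54.0 and 54.2 CPM in those numbered 1 (-1.77 ± 0.078, edgeR adjusted p = 1e-07). ACTN1 had 75.5 and 84.4 CPM in those numbered 2, against 238 and 225 CPM in those numbered 1 (-1.53 ± 0.075, edgeR adjusted p = 1.69e-07).

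These 3 cytoskeletal genes did not overlap between the numbers, which likewise adds nothing to the test. ITGB2 had 109 and 114 CPM in the libraries numbered 2, against 242 and 231 CPM in those numbered 1 (-1.09 ± 0.066, edgeR adjusted p = 6.36e-07). Of the 9 tested leukocyte adhesion genes 1 was higher and 7 lower, among them FERMT3 (-0.98), NEDD9 (-0.98), PTK2B (-0.93) and ITGAL (-0.79). ITGAE was the one that was higher, with 54.2 and 54.2 CPM in the libraries numbered 2 against 29 and 30.4 CPM in those numbered 1 (0.87). HASPIN, opposite ITGAE, was higher too (0.60). Of 11 genes of non-blood cells 6 were higher and 1 lower, and of 15 broadly expressed genes 3 were higher and 8 lower. Over all genes tested 25.4% were higher and 25.7% lower, and the classes were not tested against these shares.

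**Figure D5:**
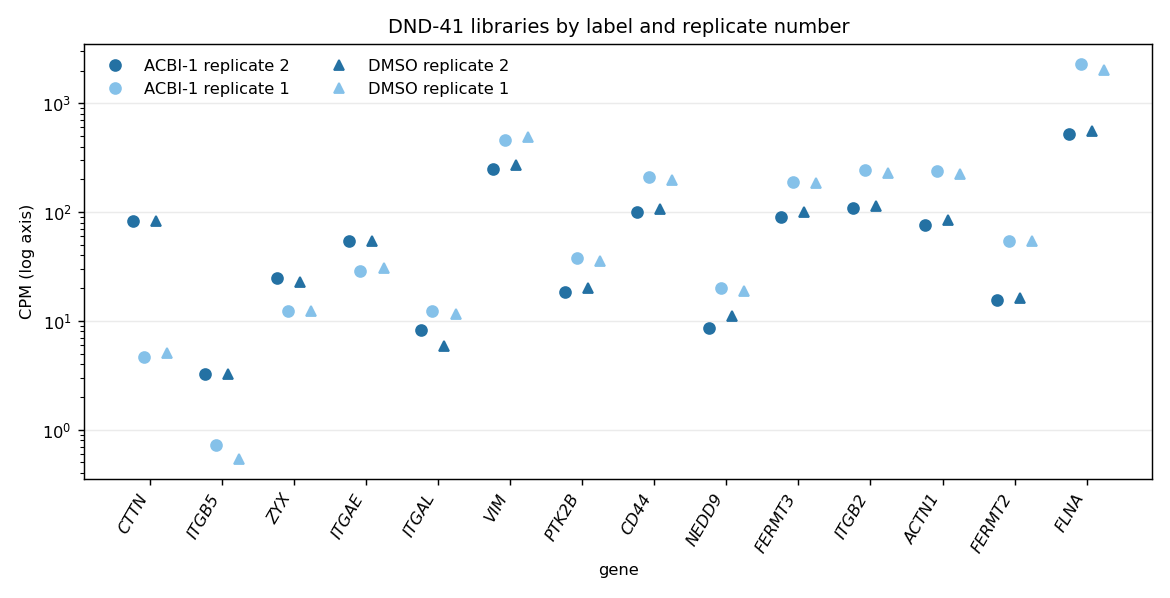
CPM on a log axis in each DND-41 library, by treatment label (circles ACBI-1, triangles DMSO) and replicate number (dark 2, light 1). The 14 genes are the members with the largest changes by number among those with an edgeR adjusted p under 0.05. Dark points lie together and light points lie together for every gene shown, as for CTTN at 82.5 CPM in both libraries numbered 2. Since the genes were chosen by this contrast, their separation by number follows from the choice.

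PTK2 had 0 counts in all 4 DND-41 libraries. At the limit of 3 counts per library this is at most 0.138 to 0.141 CPM, scaled to total counts alone. On that scale PTK2 had at least 23.2 CPM in the MOLT-4 libraries with ACBI-1 and at least 0.906 CPM in those with DMSO, so it was at least 164.9-fold and at least 6.44-fold higher there than in any DND-41 library. With total counts in place of TMM, the median moved by 0.10, and 4779 genes were called higher and 2916 lower instead of 3704 and 3756. Members then were 12 higher and 12 lower, and leukocyte adhesion genes 2 higher and 5 lower. Without 1 library the members were 9 to 10 higher and 12 to 14 lower. The fibroblast marker list summed to 9.10 and 8.80 CPM in the libraries numbered 2, against 32.6 and 33.2 CPM in those numbered 1, nearly all of it PDGFRB, and its part in the results was not tested.

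Set side by side, 34 members were tested in both contrasts and 21 were called in both. Of these, 5 were higher in both, 14 lower in both and 2 differed in sign, which is 90.5% of the same sign, against 92.6% of the 5150 genes called in both over all genes. The share is thus that of the background. The members that differed were ITGAE (-1.29 in MOLT-4 and 0.87 by number in DND-41) and VCL (0.28 and -0.71). CTTN (3.57 and 4.09), FLNA (-1.71 and -2.02) and FERMT3 (-1.02 and -0.98) had like values, while PTK2B (-2.49 and -0.93) and ITGAL (-2.73 and -0.79) had larger values in MOLT-4. The difference between the contrasts was not tested, since the treatment of the DND-41 libraries is in doubt.

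The difference of the labelled treatment effect between the lines was tested in 1 fit of all 8 libraries. It called 63 of 16047 genes (0.393%) and 0 of 36 tested members by edgeR. At an unadjusted p under 0.05 were 12 of the 36 members and 1611 of the 16047 genes. DESeq2 called 3 members higher and 4 lower, of 159 higher and 236 lower among all genes. This fit takes the DND-41 labels as given, so its spread holds the difference between the numbers.

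MOLT-4 with DMSO was also set beside DND-41, with the range of all 4 DND-41 libraries in place of a single level, since their treatment is in doubt. ITGAL had 120.4 and 124 CPM in MOLT-4 with DMSO, against 5.82 to 12.5 CPM over the 4 DND-41 libraries. ZYX had 1.28 and 1.04 CPM in MOLT-4 with DMSO, against 12.2 to 25 CPM in DND-41, and ITGA1, a collagen receptor chain, had 10.9 and 9.07 CPM in MOLT-4 with DMSO, against 71.0 to 128 CPM in DND-41. None of these ranges overlap, but these genes had some of the largest differences among the members. On the DMSO-labelled libraries their log2 fold changes were 3.92 (ITGAL), -3.80 (ZYX) and -3.16 (ITGA1). The lack of overlap is thus no separate evidence.

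Tested on the DMSO-labelled libraries, 10 members were higher and 9 lower in MOLT-4 among 36 tested (edgeR), where 35.1% of all 15069 genes were called, 17.7% higher and 17.4% lower. The counts were 13 and 16 against the DND-41 libraries numbered 1 and 16 and 19 against those numbered 2. Without DMSO replicate 1 of MOLT-4 they were 6 and 6, and without DMSO replicate 2 of MOLT-4 they were 6 and 5. Without the DMSO-labelled DND-41 library numbered 1 they were 16 and 19, and without that numbered 2 they were 12 and 16. Each line was deposited in its own count table, and the MOLT-4 column names end in the unexplained word "redo", so line and run cannot be told apart.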

How the data were processed

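The 8 libraries were made from total RNA and read at both ends with strand kept, per the labels' protocols. Per the submitters' processing notes, the tools were STAR 2.5.2a, featureCounts and DESeq2 1.12.4, with hg19. The strand setting of the counting and the annotation release are not given in the sources used here. The authors deposited whole-number counts per Ensembl gene, 1 table per line. They also deposited 1 DESeq2 table per line with a mean of normalised counts (a signal), log2 fold changes with their standard errors, a Wald score, and p-values. All count columns were matched to samples by name, and 0 were left over.

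Counts were tested by the 2-sided quasi-likelihood F-test of edgeR 4.0.16 (R 4.3.3), after TMM scaling and removal of low-count genes with filterByExpr, with p-values adjusted by Benjamini-Hochberg over all genes tested, at a threshold of 0.05. The standard error of a log2 fold change is its size divided by the square root of F. CPM are counts scaled to TMM-adjusted totals within each line. TPM use exon lengths of GENCODE 29 (52526 of the gene identifiers), which is not the authors' annotation. The rule for per-library values took members with an adjusted p under 0.05, at least a 2-fold change and a mean of at least 1 CPM in 1 MOLT-4 group, and the genes of the paralog pairs. Other members given this way (ITGA1, ITGA6, ITGB1, ITGB3, ITGB5, ITGB7, ILK, VIM and ACTN1) were chosen after their values were seen. For genes chosen by their change, groups of 2 libraries that do not overlap add nothing to the test. The share of all genes without overlap was not counted. Of the other lists, up to 4 genes with the smallest adjusted p were named, and RASSF5 was left out because its symbol has 2 identifiers. The members and lists were chosen with earlier results of these data known. Alternatives were DESeq2 1.42.0, other scalings and filters, a replicate block, a shared spread, and leaving out each library.

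Precision rests on 2 libraries per group at 21308737 to 22067644 counts each, and limits given for 0 counts cover counting error only.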

Additional observations from a re-analysis of the deposited data

How the results depend on the processing

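The MOLT-4 directions of the members were stable: 3 of the 35 tested members changed sign under 1 alternative, and none of these had passed the test. These were PARVG under total counts (0.019), ITGB7 (-0.79 to 0.239 with 1 library left out) and ITGB1 (-0.012 to 0.069 with 1 library left out). The spread shared by 8 libraries, whose DND-41 groups are as labelled, gave 4 members higher and 5 lower, and 250 genes higher and 294 lower in all. Without the low-count filter 2560 genes were higher in MOLT-4 and 2164 in the DND-41 libraries numbered 2.

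In DND-41 by number, sign changes were seen for ITGA2 under total counts (0 when rounded), ITGB4 (0.098 under total counts, 0.004 with a filter of 1 CPM in 2 libraries, and -0.356 to 0.356 with 1 library left out), TLN1 (0.011 under total counts) and ITGB3 (-0.339 to 0.692 with 1 library left out), and none of these had passed. With 1 library left out 2453 to 3046 genes were higher.

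The replicate block, which pairs libraries by number, gave 777 genes higher and 572 lower for DND-41 as labelled, with 1 member lower (ITGB4, -0.626, edgeR adjusted p = 0.0479, named after its value was seen). For the difference between lines it gave 8 members higher and 16 lower, and 2767 genes higher and 3093 lower. In MOLT-4 the block gave 11 members higher and 18 lower, as without it. Deviations from the group means correlated between same-numbered libraries at 0.958 in DND-41 and 0.005 in MOLT-4, but the labels do not say that a number marks a pairing.

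For the difference between lines, DESeq2 called 3 members higher and 4 lower (159 and 236 genes in all), and total counts called 1 member lower. With 1 library left out it called 0 to 1 member lower, 0 to 7 genes higher and 0 to 43 lower.

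For MOLT-4 over DND-41, members higher were 6 to 16 and members lower 5 to 19 with 1 library left out, and genes higher 1168 to 5842 and lower 994 to 5474. Against the DND-41 libraries numbered 1, 16 members were lower, and 5248 genes were higher and 5030 lower. Against those numbered 2, 16 members were higher and 19 lower, and 5964 genes were higher and 5998 lower. Without the low-count filter 5 members and 1700 genes were lower. The cause of these changes was not tested.

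Low counts limit ITGA3, ITGB3, ITGB4, ITGB7, ILK and PARVB, where a few reads move a fold change. Genes that share exon bases with a neighbour on the other strand (ITGAE, ITGB7, ILK, VCL) rest on an unknown strand setting. The direction of treatment in DND-41 rests on the labels, which the libraries do not follow.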

Other observations

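The ligands that these receptors bind were mostly low in the lines. Of 17 integrin ligand genes 9 were tested in MOLT-4, of which 5 rose and 2 fell, where 28.2% of all genes tested were higher and 30.2% lower. ICAM3, the LFA-1 ligand of resting leukocytes, averaged 40.4 CPM with ACBI-1 and 67.1 CPM with DMSO (log2 fold change -0.73, edgeR adjusted p = 1.09e-15), and ICAM2, another LFA-1 ligand, 16.9 CPM with ACBI-1 and 22.9 CPM with DMSO (-0.44). LAMC1, a laminin chain, averaged 1.29 CPM with ACBI-1 and 0.0712 CPM with DMSO (4.07), and COL1A1 7.16 CPM with ACBI-1 and 0.736 CPM with DMSO (3.28), most of it in ACBI-1 replicate 2 with 312 counts. ICAM1 and VCAM1 were at most 0.190 CPM in MOLT-4.

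In the DND-41 libraries numbered 2, of 8 tested ligand genes 1 was higher and 3 were lower, where 25.4% of all genes tested were higher and 25.7% lower. ICAM3 averaged 57.6 CPM in those numbered 2 and 80.6 CPM in those numbered 1 (-0.48).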
